A study of Mus musculus with 8 samples.

Results

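The genes described here are 7 that set how much glucose the liver releases and how much it stores as glycogen: G6pc, Pck1, Fbp1, Ppp1r3b, Ppargc1a, Gys2 and Pygl. They were chosen by name, with earlier results of these data known. Each was read from the probe whose annotation gives that gene as its only symbol. Where a gene had more than 1 such probe, the probe with the highest mean log2 intensity over the 8 arrays was used. All 7 were found, on 8 probes of 33012, and 13840 genes in all had a probe with a single symbol. The other probe belongs to Ppp1r3b. None of the 7 genes lies on chromosome 17, the chromosome that differs between the strains, by the RefSeq annotation of GRCm38.p6.

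Glucose made in the liver, from lactate, glycerol and amino acids or from stored glycogen, leaves the hepatocyte after its phosphate is removed. Pck1 encodes the cytosolic phosphoenolpyruvate carboxykinase that opens the path from oxaloacetate, Fbp1 the fructose bisphosphatase midway, and G6pc the catalytic subunit of the phosphatase that ends it. Gys2 is the liver glycogen synthase and Pygl the liver glycogen phosphorylase. Ppp1r3b (called GL) brings protein phosphatase to glycogen, which activates the synthase and inactivates the phosphorylase. Ppargc1a encodes PGC-1alpha, a coactivator that fasting and glucagon induce in liver and that drives G6pc and Pck1. Insulin lowers transcription of G6pc and Pck1, and feeding and the time of day both change these genes.

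Hypothalamus and liver were taken from male mice of 2 strains, C57BL/6J (B6) and B6.CAST-17, a congenic strain homozygous for a chromosome 17 segment of CAST origin on a B6 background. Mice were on chow or had been offered 2 diets side by side for 24 h, 1 rich in carbohydrate and 1 rich in fat (78% of either, with 22% protein), called 2-choice here. Ages were not used here. By the design text the mice were the most divergent in nutrient intake of 20 to 25 per strain tested over 10 days, were put back on chow for 6 weeks, and were sampled on day 2 of the renewed choice, 4 h before lights out. The 10 days, the 6 weeks, the day of sampling and the time of day were recorded here only for the 2-choice groups. Whether the chow mice shared this history was not established here. Each array held RNA pooled from 6 mice and there was 1 array for each tissue, strain and diet, so no pool was repeated and p-values rest on how far the matched differences disagree. Sample titles gave the groups, and the strain, tissue and diet characteristics match them; some free-text descriptions go against them, naming hypothalamus for liver samples, the 2-choice diet for liver chow samples C57BL/6J for the hypothalamus congenic chow sample and the congenic strain for the B6 liver 2-choice sample.

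The tissue labels were borne out by marker genes. The mean log2 level of 4 hepatocyte markers was 20.15 to 20.69 on the liver arrays and 8.69 to 10.66 on the hypothalamus arrays, and that of 4 neuronal markers was 9.29 to 9.81 in liver and 13.59 to 14.07 in hypothalamus. Within a tissue and diet the deposited values of the 2 strains shared a distribution. The median intensity was 700 to 702 on the liver arrays, but 560 on the hypothalamus chow arrays and 1338 on the hypothalamus 2-choice arrays. In both tissues the chow and 2-choice arrays were thus scaled as separate sets, far apart in hypothalamus and close in liver, so the scaling and the diet cannot be told apart.

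Promoter sequences are given for the 3 genes of the set best known as targets of cAMP and insulin signalling in liver, because these shared inputs make their diet values worth reading side by side. RefSeq promoters (GRCm38.p6) were found for 5 of the 7 genes, and Gys2 and Ppp1r3b had none in the table used. Each line shows the 250 bases before the start site, written 5′ to 3′ along the gene. Capitals mark matches on either strand to any of 7 motifs: the cAMP response core TGACG, the insulin response motif CAAAACA, the forkhead motif GTAAACA, the E-box CACGTG, the TATA box TATAAA, the nuclear receptor core AGGTCA and the glucocorticoid receptor core TGTTCT.
G6pc, chr11:101367466-101367715, plus strand: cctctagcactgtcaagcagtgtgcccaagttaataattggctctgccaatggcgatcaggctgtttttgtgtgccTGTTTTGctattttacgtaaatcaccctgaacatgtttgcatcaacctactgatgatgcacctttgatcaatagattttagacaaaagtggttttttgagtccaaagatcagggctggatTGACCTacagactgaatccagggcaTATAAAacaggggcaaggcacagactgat
Pck1, chr2:173152823-173153072, plus strand: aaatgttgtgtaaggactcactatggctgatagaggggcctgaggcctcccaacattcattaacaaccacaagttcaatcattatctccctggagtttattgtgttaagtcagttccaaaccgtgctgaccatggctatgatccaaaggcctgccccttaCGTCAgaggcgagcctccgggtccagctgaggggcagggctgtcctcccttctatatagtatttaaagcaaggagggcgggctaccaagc
Ppargc1a, chr5:51567726-51567975, minus strand: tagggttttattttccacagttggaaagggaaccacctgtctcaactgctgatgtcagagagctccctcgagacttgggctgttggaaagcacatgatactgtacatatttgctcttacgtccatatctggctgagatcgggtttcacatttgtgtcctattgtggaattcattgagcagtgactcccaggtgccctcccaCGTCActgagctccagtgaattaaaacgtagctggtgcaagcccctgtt

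The G6pc promoter held CAAAACA on the reverse strand at -174 to -168 from the start site, a motif present in 5.56% of 32851 promoters, AGGTCA on the reverse strand (14.0%) and TATAAA at -29 to -24 (12.4%). The Pck1 and Ppargc1a promoters each held TGACG on the reverse strand, starting at -90 and -49, as did that of Pygl, a motif present in 17.8% of promoters. These letters did not occur in the 250 bases of G6pc, and CAAAACA did not occur in those of Pck1 or Ppargc1a. Only exact letters were searched, so variants of a motif were not looked for. Fbp1 had no match to any of the 7. A match describes the letters only, and no binding was measured.

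The first comparison asked how liver expression differed after the choice of diets from that on chow. G6pc and Ppp1r3b were higher in the 2-choice livers of both strains, G6pc by 3.28-fold and Ppp1r3b by 2.46-fold, while the mean differences of the other 5 genes lay between -0.05 and 0.34 on the log2 scale. The normalized log2 level of G6pc in liver was 17.73 in B6 and 17.39 in congenic pools on chow, and 19.22 and 19.33 on 2-choice. The 2 chow pools were both below the 2-choice pools, with a gap between the groups larger than the difference between strains in either diet. As deposited, these were intensities of 224171 and 176365 on chow and 579281 and 621125 on 2-choice. The fitted log2 difference was 1.71 ± 0.24 (SE), made of 1.49 in B6 and 1.94 in the congenic pools. Of the 19807 probes tested, 200 had a higher diet difference than G6pc.

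Ppp1r3b, the glycogen-targeting subunit, lay at 16.30 (B6) and 16.19 (congenic) on chow and at 17.65 and 17.43 on 2-choice. Its groups too did not overlap, and the strains differed by at most 0.22 in either diet. Throughout, the share of all probes whose groups do not overlap was not counted, so non-overlap is given as a description only. The fitted log2 difference was 1.30 ± 0.41, with 1.35 in B6 and 1.24 in the congenic pools, and 602 probes had a higher difference. The dimmer Ppp1r3b probe, annotated to the same transcript, gave 11.62 and 11.87 on chow and 11.77 and 12.25 on 2-choice. It differed by 0.27 ± 0.60, so the probes disagree about the size of the difference, and the result for this gene rests on the brighter probe.

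**Figure D1:**
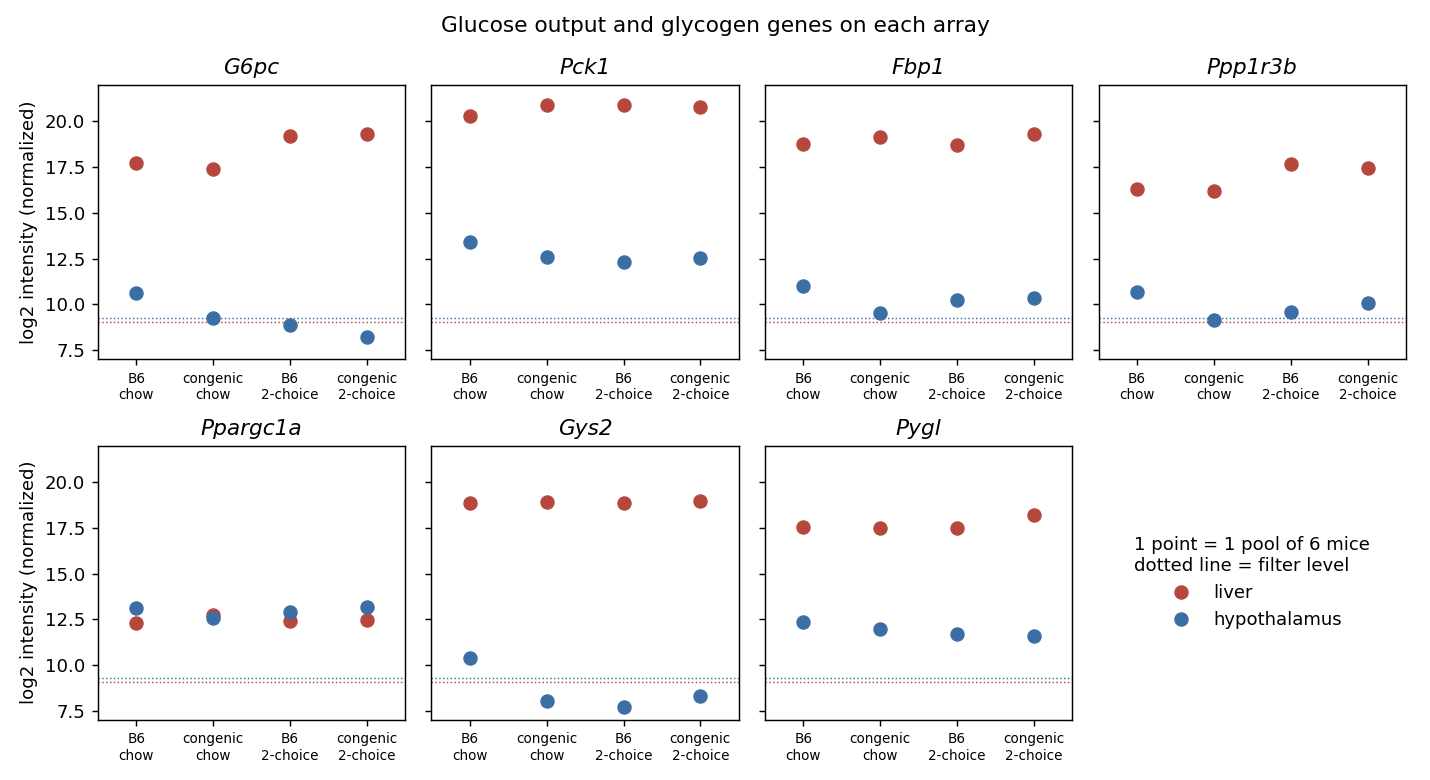
Normalized log2 intensity (vertical axis) of each gene on the 8 arrays, with strain and diet along the horizontal axis; red points are liver, blue points hypothalamus, and each point is 1 pool of 6 mice. G6pc and Ppp1r3b stand higher in the 2-choice livers than in the chow livers, Gys2 is level across the liver arrays, and Ppargc1a is the gene at similar levels in the tissues.

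The other glucose-making enzymes did not follow G6pc. Pck1 lay at 20.31 in the B6 chow pool and at 20.91, 20.88 and 20.80 in the congenic chow, B6 2-choice and congenic 2-choice pools. The B6 chow pool was thus the low one, and the other 3 were within 0.10 of each other. The fitted diet difference was 0.23 ± 0.26, made of 0.56 in B6 and -0.10 in the congenic pools. Fbp1 lay at 18.78 and 18.71 in the B6 pools on chow and on 2-choice, and at 19.18 and 19.30 in the congenic pools. Its values parted by strain and not by diet, with a diet difference of 0.03 ± 0.33.

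Of the glycogen enzymes, Gys2 was the most level gene of the set. Its log2 levels in liver were 18.85 (B6 chow), 18.91 (congenic chow), 18.86 (B6 2-choice) and 19.00 (congenic 2-choice), a range of 0.14, and the diet difference was 0.04 ± 0.55. That SE is much larger than the liver range because it also holds the spread of the hypothalamus pairs, where Gys2 was dim. Pygl lay at 17.55, 17.48 and 17.50 in the B6 chow, congenic chow and B6 2-choice pools and at 18.21 in the congenic 2-choice pool. The 3 lower pools spanned 0.08, and the fitted difference of 0.34 ± 0.22 came from the congenic pair (0.73 against -0.06 in B6).

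Ppargc1a, the coactivator, had no diet difference of one sign in both strains. Its liver levels were 12.29 (B6 chow), 12.73 (congenic chow), 12.43 (B6 2-choice) and 12.48 (congenic 2-choice), with a diet difference of -0.05 ± 0.30. The 2-choice values lay between the chow values, so the groups overlapped, while those of its target G6pc did not.

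By limma on all 8 arrays, 0 of the 7 genes were called at an adjusted p under 0.05, and 0 of 19807 probes were called in all (0%), with 1731 probes at an unadjusted p under 0.05. The adjusted p was 0.136 for G6pc and 0.430 for Ppp1r3b, and 0.711 or higher for the others. The error of that fit is shared with hypothalamus, where the mean of G6pc was under the filter level and its pools ran from 8.19 to 10.61. When the fit used liver pools only, which leaves 1 residual degree of freedom and makes it lean on the spread of all probes, limma called G6pc (adjusted p = 3.75e-05, SE 0.17) and Ppp1r3b (adjusted p = 7.72e-05, SE 0.14), both higher, and none of the other 5 (0.371 or higher). These 2 of 7 stand against 340 of 19807 probes called higher in that fit, 1.72% of those tested, with 299 called lower. As the 7 genes were chosen with earlier results of these data known, that share is given as a description only. Over the alternatives that kept every liver array, the adjusted p by limma ranged from 3.75e-05 to 0.690 for G6pc and from 7.72e-05 to 0.935 for Ppp1r3b. The sign was the same in all 11 and all 12 alternatives run. Most of these could not change it: filters, the variance trend and the fit on liver alone leave the estimate as it is. Leaving out 1 array gives the value of a single pair. Only the scalings and the other Ppp1r3b probe gave a new estimate from all liver arrays.

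Counted without a test, 2 of the 7 genes were at least 1.5-fold higher in the mean with the same sign in both strains, and 0 were lower by that rule. Over all probes tested, 12.5% were higher and 12.1% lower by the same rule. The median difference of the 7 genes was 0.23, against -0.01 for all probes tested. As the genes were chosen with earlier results known, neither comparison tests the set. The diet differences of the strains were farthest apart for Pygl (congenic minus B6 diet difference 0.79), Pck1 (-0.67) and G6pc (0.45), each of which rests on single pools with no error term. For Ppp1r3b, Fbp1 and Gys2 the same value was between -0.11 and 0.19.

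**Figure D2:**
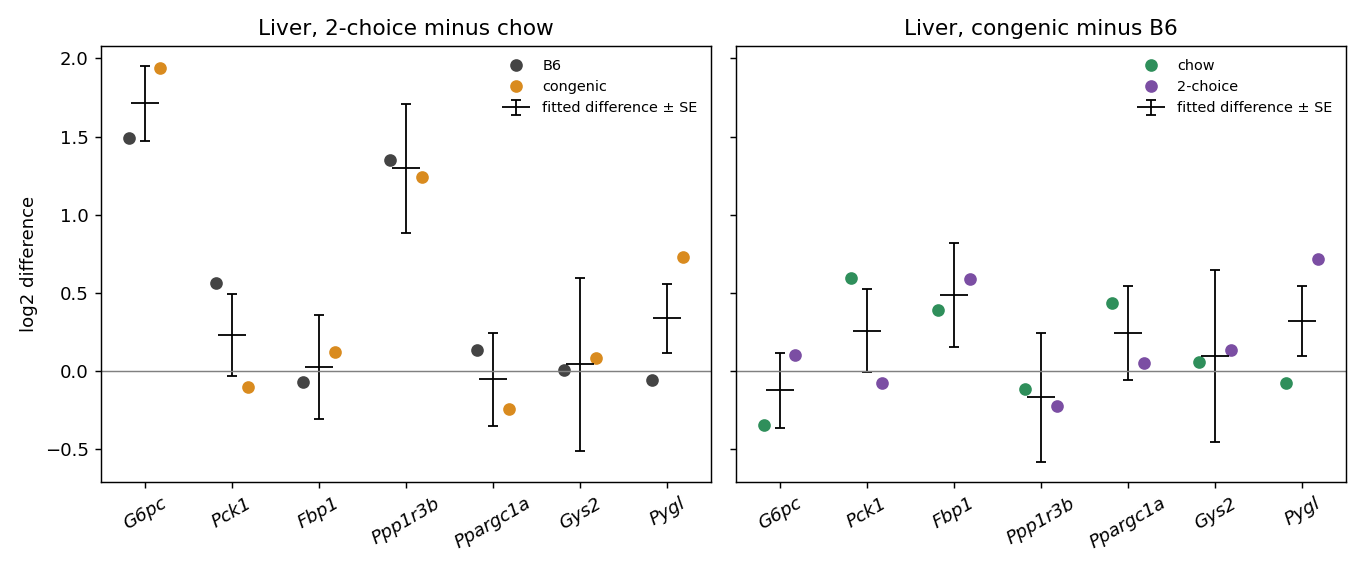
Log2 differences in liver for each gene, 2-choice minus chow on the left (black points B6, orange points congenic) and congenic minus B6 on the right (green points chow, purple points 2-choice); the bar and whiskers are the fitted difference ± SE from the fit on 8 arrays. G6pc and Ppp1r3b lie above 1 in both strains for diet, and no gene reaches 1 in either diet for strain.

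**Figure D3:**
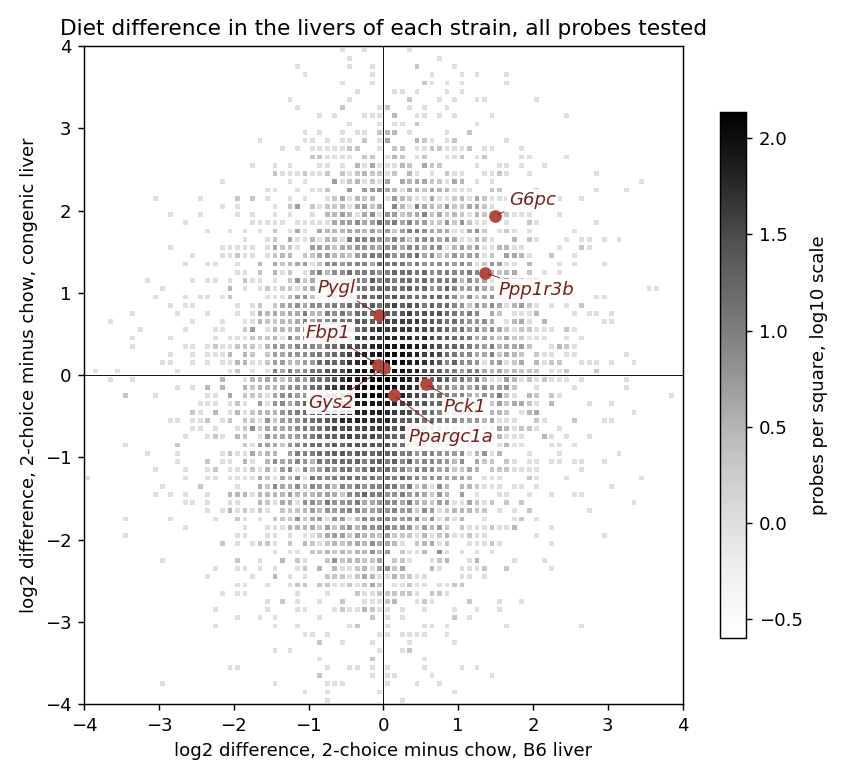
Diet difference in B6 liver (horizontal axis, log2) against that in congenic liver (vertical axis, log2), with grey squares for the number of probes and red points for the 7 genes; 19728 of the 19807 probes tested fall inside the axes. G6pc and Ppp1r3b lie to the upper right, and the other 5 lie at most 0.73 from 0 in both strains.

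Partners of these genes were read from lists of the pathway. Of 17 gluconeogenesis partners tested, 0 were at least 1.5-fold higher and 3 were lower by the rule above. The 3 were G6pc3, the ubiquitous relative of G6pc (log2 -1.31 ± 0.39), the lactate dehydrogenase subunit gene Ldhb (-1.06 ± 0.19) and the cytosolic aspartate aminotransferase gene Got1 (-0.59 ± 0.15), of which the fit on liver alone called Got1 (adjusted p = 0.0267). The median of the list was -0.04. Slc37a4, the transporter that brings the substrate to the G6pc enzyme, was picked after its values were seen: it lay at 16.26 and 16.37 on chow and 16.13 and 16.68 on 2-choice, so the groups overlapped.

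Of 17 glycogen partners tested, 2 were higher and 1 lower, with a median of -0.01. Pgm3, a phosphoglucomutase family gene that acts on acetylglucosamine phosphate, was higher (1.37 ± 0.46; 0.32 in B6 and 2.41 in the congenic pools) and passed in the fit on liver alone (adjusted p = 0.0417). Pgm2 was at 0.82 ± 0.77, and Pygb, the brain phosphorylase, at -0.67 ± 0.22, without passing. The B6 chow value of Pgm2, 9.07, was close to the filter level. Ppp1r3c, another glycogen-targeting subunit and again picked after its values were seen, lay at 14.36 (B6) and 14.02 (congenic) on chow and 14.69 and 14.81 on 2-choice. Its difference of 0.56 ran the same way as that of Ppp1r3b and did not pass in the fit on liver alone (adjusted p = 0.0699).

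Among 22 genes of glycolysis and glucose entry tested, 4 were higher and 2 lower. Pklr, the liver pyruvate kinase, was higher by 1.12 ± 0.48 (0.49 in B6, 1.76 in the congenic pools; adjusted p = 0.0142 on liver alone). Pdk1, a pyruvate dehydrogenase kinase, was higher by 0.67 ± 0.21 (adjusted p = 0.0164 on liver alone), and its relatives Pdk4 (1.35 ± 0.75) and Pdk3 (1.13 ± 0.46) did not pass. Aldoa, the aldolase of muscle and many other tissues, was lower (log2 -1.24 ± 0.25; adjusted p = 0.00763 on liver alone), and Pfkp, the platelet phosphofructokinase gene, was at -1.37 ± 0.47 without passing.

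Of 49 regulators and hormone signalling genes tested, 5 were higher and 5 lower. Igfbp1, an insulin-repressed liver gene, was higher by 0.86 in both strains (± 0.29; adjusted p = 0.00477 on liver alone). Also called in that fit were Srebf1, the insulin-induced regulator of lipogenesis (0.63 ± 0.15, adjusted p = 0.0257), and Mlxipl, the carbohydrate-responsive factor ChREBP (0.59 ± 0.50, adjusted p = 0.0338). Nr4a1 (0.85 ± 0.36) and the forkhead gene Foxa1 (0.64 ± 0.75) were higher without passing. The 5 lower ones, none of which passed, were Pik3r1 (-0.94), Foxo4 (-0.72), the glucocorticoid receptor gene Nr3c1 (-0.68), Foxa3 (-0.65) and Foxa2 (-0.61). In the fit on all 8 arrays 0 genes of any of these lists were called for diet in liver.

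Clock and zonation genes were read because time of day and lobule position both go with the members' expression. Of 12 clock genes tested, 4 were higher and 0 lower by the rule, none passing in either fit: Per2 (1.73 ± 0.86), Arntl (1.39 ± 0.54), Bhlhe40 (0.70 ± 0.33) and Nfil3 (0.64 ± 0.31). Per2 was at 9.39 and 10.34 on chow and 11.12 and 12.07 on 2-choice. The time at which chow samples were taken was not established here, and its part in the G6pc and Ppp1r3b differences was not tested. Of 11 periportal genes, the zone where gluconeogenesis is known to be highest, 0 were higher or lower by the rule, with a median of -0.25, and 2 were called lower on liver alone. Of 13 pericentral genes 2 were lower, Oat (-1.17 ± 0.18, adjusted p = 2.00e-04 on liver alone) and the glutamate transporter gene Slc1a2 (-0.65 ± 0.27, adjusted p = 0.0451).

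Markers of other cells moved with diet beside these genes. All 6 Kupffer cell markers had a lower mean in the 2-choice livers, 5 by the rule and 5 called on liver alone, and the log2 of their summed level was 17.67 and 17.74 on chow against 16.44 and 16.14 on 2-choice. The summed level of the 4 hepatocyte markers was 22.51 and 22.90 against 22.20 and 22.80, so these groups overlapped. Some other cells' lists were lower on 2-choice without overlap. The summed level of 5 sinusoidal endothelium markers was 16.18 and 16.20 against 15.83 and 15.87 (1 called lower on liver alone). That of 3 stellate cell markers was 18.17 and 18.14 against 17.89 and 17.85 (0 called), and that of 2 red cell markers 17.68 and 17.54 against 17.17 and 16.54 (1 called lower). The cholangiocyte list went the other way: the summed level of its 4 markers was 11.36 and 11.40 on chow and 11.74 and 11.48 on 2-choice (0 called). That of 2 exocrine pancreas markers, both dim, was 9.43 and 10.02 on chow and 10.64 and 11.64 on 2-choice. No marker of these lists was at 0. In such tissue pools fewer cells of a type and less RNA per cell cannot be told apart, and the part of these shifts in the members' differences was not tested.

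**Figure D4:**
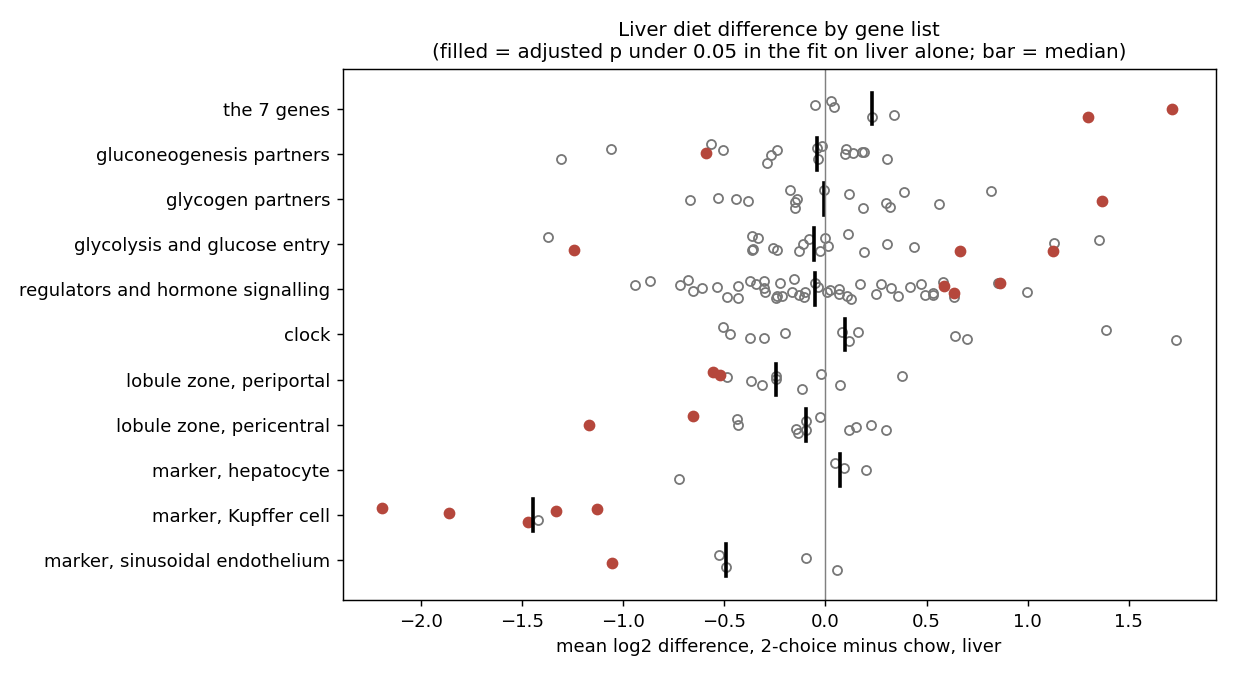
Mean log2 difference in liver, 2-choice minus chow (horizontal axis), of each tested gene in the 7 genes and in 10 lists of partners, regulators, clock, zonation and cell type markers; filled points passed in the fit on liver alone and the black bar is the median of the list. G6pc and Ppp1r3b lie apart from the other members, the partner lists centre near 0, and the Kupffer cell markers lie below 0.

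The next comparison asked how the congenic livers differed from B6. In liver no member was 1.5-fold apart with the same sign in both diets (0 of 7 higher and 0 of 7 lower, against 9.16% and 13.3% of all probes tested). Fbp1 showed the largest mean difference of the 7, being higher in the congenic pools by 0.39 on chow and 0.59 on 2-choice (0.49 ± 0.33), and the strains did not overlap for it. Gys2 was higher by 0.06 and 0.14 and Ppargc1a by 0.43 and 0.05, and for these the strains did not overlap either. Ppp1r3b was lower, at -0.11 and -0.22, whereas its other probe was higher by 0.25 and 0.48.

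For the remaining 3 genes the sign turned with the diet. G6pc was -0.35 on chow and 0.10 on 2-choice, Pck1 0.59 and -0.07, and Pygl -0.08 and 0.71. No gene of the 7 was called by limma, with adjusted p from 0.860 to 0.991, and 0 of 19807 probes were called in all (0%), with 1318 at an unadjusted p under 0.05. The fit on liver alone called 252 probes (1.27%) and none of the 7, Fbp1 having the lowest adjusted p (0.232).

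Among the partners, Got1 was higher in the congenic livers (0.61 ± 0.15, adjusted p = 0.0420 on liver alone) and the mitochondrial aldehyde dehydrogenase gene Aldh1b1 of the periportal list likewise (0.99 ± 0.30; 1.00 on chow and 0.98 on 2-choice, adjusted p = 0.00160). Got1 was thus 1 of 17 gluconeogenesis partners higher by the rule, with Fbp2 (-1.03 ± 0.60) and G6pc3 (-0.65 ± 0.39) lower and not passing. Pgm2 (1.10 ± 0.77) was the 1 higher of 17 glycogen partners and 0 were lower. In glycolysis and glucose entry 3 of 22 were higher (Pfkfb2 1.23, Slc2a1 1.14, Gapdh 0.60) and 3 lower (Pdk4 -1.59, Pdk3 -1.30, Pfkm -0.80), none of them passing. Fbp2, G6pc3, Pgm2 and Slc2a1 each had a liver pool between 9.07 and 9.25, close to the filter level of 9.04. Of the 49 regulators 4 were higher and 5 lower, none passing, among them Igfbp1 at 0.63 ± 0.29 (0.63 in both diets) and Cebpb at -0.62 ± 0.18. In the clock list Per2 (0.96) was higher and Nfil3 (-0.69) lower, without passing.

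The tissues were also set side by side, on values normalized over all 8 arrays and with matched pairs as blocks. Of the 5 members above the filter level in both tissues, limma called 4 higher in liver, where 24.1% of 19807 probes were called higher. Fbp1 differed by 8.26 ± 0.27 on the log2 scale, Pck1 by 7.30 ± 0.28, Ppp1r3b by 6.72 ± 0.34 and Pygl by 5.37 ± 0.24, each higher in 4 of 4 pairs with an adjusted p of 6.37e-08 or lower. Ppargc1a differed by -0.45 ± 0.26 (adjusted p = 0.184), with pairs from -0.83 to 0.19. In hypothalamus the mean levels of G6pc (9.23) and Gys2 (8.59) did not reach the filter level of 9.26. These genes entered the comparison only through liver, where their means were 18.42 and 18.91, so their levels are given as a description with no test.

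In hypothalamus the 5 genes that passed the filter were tested, and limma on all 8 arrays called none of them. Calls there depended on the scaling, and values on single arrays. Pck1 lay at 13.42 (B6 chow), 12.60 (congenic chow), 12.28 (B6 2-choice) and 12.50 (congenic 2-choice), and its groups by diet did not overlap. Its diet difference was -0.61 ± 0.26, made of -1.13 in B6 and -0.09 in the congenic pools. Without either congenic array it was -1.13 and without either B6 array -0.09, each the value of a single pair. The error of such a fit comes from the liver pairs only, so its p-values are not given. Pygl differed by -0.54 ± 0.22, with -0.69 in B6 and -0.39 in the congenic pools, and its groups by diet did not overlap either. Ppargc1a was at 13.14, 12.59, 12.91 and 13.18 in the same order, with overlapping groups and a difference of 0.19 ± 0.30. With median centring that difference was 1.21 and passed in limma (adjusted p = 0.0127), and with the deposited scale it was 2.46 (adjusted p = 6.46e-05).

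Fbp1 and Ppp1r3b had opposite signs in the strains, at -0.77 (B6) and 0.85 (congenic) for Fbp1 and -1.10 and 0.92 for Ppp1r3b. Both were dim on the congenic chow array of hypothalamus, Ppp1r3b at 9.16, under the filter level of 9.26, and Fbp1 at 9.51. Their diet and strain values there rest partly on that pool. Adjusted p by limma was 0.212 or higher for the 5, against 97 of 19807 probes called for diet (0.490%). With the deposited scale kept, the median diet difference of all probes in hypothalamus was 2.05, that of Pck1 became 1.67 and that of Pygl 1.70, and all 5 members were called higher on 2-choice, so the directions hold only relative to the arrays' common distribution. For strain, the chow pairs were -0.82 (Pck1), -1.46 (Fbp1), -1.54 (Ppp1r3b), -0.55 (Ppargc1a) and -0.39 (Pygl), and the 2-choice pairs 0.22, 0.16, 0.47, 0.27 and -0.09 in that order. None of the 5 was called for strain by limma, nor any probe (0%, with 983 at an unadjusted p under 0.05; lowest adjusted p of the 5, 0.823). Without either 2-choice array only the chow pair is left, at -1.46 for Fbp1 and -1.54 for Ppp1r3b. The error of such a fit holds no hypothalamus spread, so its p-values are not given.

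The B6 chow array was the highest of the 4 hypothalamus arrays for 6 of the 7 genes, G6pc and Gys2 under the filter among them. It was the highest for 30.2% of all 33012 probes and for 31.0% of those tested there. The test of diet by tissue called 10 of 15466 probes (0.0647%) and none of the 5 members tested. Ppp1r3b differed between the tissues in its diet response by 1.39 ± 0.58, with its congenic chow pool in hypothalamus under the filter level. Pygl differed by 0.88 ± 0.31 and Pck1 by 0.84 ± 0.37 (adjusted p by limma 0.250 to 0.321 for these genes). With the deposited scale 4 of the 5 were called by limma, with Pck1 (-1.57, adjusted p = 0.00524) and Pygl (-1.43, adjusted p = 0.00328) turning sign, Fbp1 at -1.72 (adjusted p = 0.00352) and Ppargc1a at -2.52 (adjusted p = 8.63e-04), beside a median of -2.08 for all probes tested. G6pc was not part of that test because it was under the filter in hypothalamus, at 10.61, 9.26, 8.87 and 8.19 in the order above, so the liver difference of G6pc was not shown to be unlike that in hypothalamus.

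G6pc and Ppp1r3b were the 2 members whose liver range was at least 1 on the log2 scale, and the genes with the most similar liver profile were looked up among 10084 single-symbol probes that passed the liver filter. Likeness was the root mean square distance between centred log2 values over the 4 liver arrays. For G6pc the closest were Yae1d1 (0.04), Gdf6 (0.10) and Eef1aknmt (0.11), and for Ppp1r3b they were Nexn (0.03), Bace2 (0.05) and Stk4 (0.07). Eef1aknmt was well within the measured range, at 15.28 and 14.88 on chow and 16.55 and 16.61 on 2-choice, as was Stk4 at 12.28, 12.08, 13.51 and 13.22. Yae1d1, Gdf6, Nexn and Bace2 lay between 8.64 and 10.97, close to the filter level of 9.04. The list describes these 4 arrays only.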

How the data were processed

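RNA of hypothalamus and liver, pooled from 6 mice per sample, was measured on 8 single-channel arrays. Per the labels' protocols, 1 microgram of total RNA was made into cRNA carrying digoxigenin and read by chemiluminescence. The deposited values were linear probe intensity. How the authors corrected background or normalized is not given in the sources used here; in the deposited table the strains of each tissue and diet share a distribution. The number of arrays limits the precision.

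Intensities were taken to log2 and quantile normalized within each tissue (over 8 arrays for the tissue comparison). A probe was tested in a tissue when its mean reached the 40th percentile there. Tests used limma 3.58.1 (R 4.3.3), lmFit and eBayes with a variance trend, with Benjamini-Hochberg adjustment over all probes tested and a threshold of 0.05. The model had a tissue term plus separate strain and diet terms for each tissue, leaving 2 residual degrees of freedom. Matched pairs were blocks for the tissue comparison, leaving 3. As no pool was repeated, the error is made of interactions and p-values cover only the spread among these pools. The code was tested on simulated data. Of the probes, 14411 had 1 gene symbol in the platform annotation, 247 several and 18354 none here. Genes other than the 7 were named from lists, up to 5 per direction by size among those at least 1.5-fold apart in the mean with the same sign in both pairs; exceptions are stated. The members and lists were chosen with earlier results of these data known. Alternatives were other scalings and filters, no variance trend, the tissue alone, leaving out each array or pair, and the other Ppp1r3b probe. Figures used matplotlib 3.10.9.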

Additional observations from a re-analysis of the deposited data

Results flagged for a closer look

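The diet difference ran in opposite directions in the tissues for 4 genes named from the lists that passed the filter in both tissues, with a mean of at least 1.5-fold in each tissue and the same sign in both strains. Oat was at -1.21 (B6) and -1.12 (congenic) in liver and 1.25 and 0.71 in hypothalamus, and its difference between tissues passed in limma (-2.14, adjusted p = 0.0443). Aldoa was at -1.17 and -1.31 in liver and 1.48 and 0.57 in hypothalamus (-2.27, adjusted p = 0.0940). Nr3c1 was at -0.82 and -0.53 against 2.59 and 1.98 (-2.97, adjusted p = 0.178), and Pik3r1 at -1.47 and -0.41 against 0.75 and 2.49 (-2.56, adjusted p = 0.261). The last 3 did not pass. The hypothalamus values cross the scales of the chow and 2-choice arrays, and with the deposited scale kept the 4 differences between tissues were -4.46, -4.42, -4.34 and -3.87 in the order given here. None of the 5 glucose output and glycogen genes tested in both tissues had this pattern. The share of all probes with it was not counted here. G6pc, under the filter in hypothalamus and so not tested for it, was at 1.49 and 1.94 in liver and -1.74 and -1.06 in hypothalamus.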

How the results depend on the processing

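With 1 pool per group, calls depend on where the error comes from. With 1 array of a tissue left out, the error for that tissue comes from the other tissue only. The fit on the tissue alone called 639 probes for diet in liver, 252 for strain in liver, 753 for diet in hypothalamus and 21 for strain in hypothalamus, against 0, 0, 97 and 0 with all 8 arrays. Leaving out 1 array of the tissue gave 9 to 28, 10 to 24, 713 to 1714 and 33 to 1376 calls, with 1 residual degree of freedom. For diet in hypothalamus the count was 15430 with the deposited scale, 7633 with median centring, 202 with quantiles over 8 arrays, 43 with the 60th percentile filter and 0 without a variance trend. For strain there it was 1 with the deposited scale and 1 with median centring, the tissue comparison had 5579 calls with the deposited scale against 9729, and diet by tissue 10781 against 10.

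Of 324 values of the members under an alternative, 266 kept direction and side of the threshold, 17 kept direction and newly passed, and 41 changed sign, of which 7 passed in the new direction, so that 24 newly passed in all. Filters, the variance trend and the fit on the tissue alone leave a value, and so its sign, as it is. The counts of newly passed values include fits without 1 array of the tissue, whose error comes from the other tissue. In liver, G6pc and Ppp1r3b kept a higher diet value in every alternative run, from 1.49 to 1.94 and from 0.27 to 1.35. With the other scalings G6pc was at 1.54 to 1.59 and Ppp1r3b at 1.18 to 1.22. Values near 0 turned: the diet difference of Fbp1 was -0.089 with the deposited scale and -0.093 with median centring, and that of Gys2 -0.044 and -0.047. Leaving out 1 liver array leaves the value of a single pair, so the diet difference ranged from -0.10 to 0.56 for Pck1, -0.072 to 0.12 for Fbp1, -0.25 to 0.14 for Ppargc1a and -0.059 to 0.73 for Pygl. The strain difference then ranged from -0.35 to 0.10 for G6pc, -0.074 to 0.59 for Pck1 and -0.077 to 0.71 for Pygl, and the other Ppp1r3b probe gave 0.37.

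In hypothalamus with the deposited scale the diet difference was 1.67 for Pck1, 1.23 for Ppp1r3b, 1.70 for Pygl, 1.63 for Fbp1 and 2.46 for Ppargc1a, all passing, and with median centring 0.41 for Pck1 and 0.44 for Pygl, not passing, and 1.21 for Ppargc1a, passing. Without 1 hypothalamus array the diet difference ranged from -1.13 to -0.09 for Pck1, -0.77 to 0.85 for Fbp1, -1.10 to 0.92 for Ppp1r3b and -0.22 to 0.60 for Ppargc1a. Each end is the value of a single pair, and the error of those fits comes from the liver pairs only, so their calls are not given. The strain difference then ranged from -0.82 to 0.22 for Pck1, -1.46 to 0.16 for Fbp1, -1.54 to 0.47 for Ppp1r3b and -0.55 to 0.27 for Ppargc1a. Diet by tissue with the deposited scale was -1.57 for Pck1, -1.43 for Pygl, -1.72 for Fbp1 and -2.52 for Ppargc1a, all passing, and -0.0056 for Ppp1r3b. The cause of these changes was not tested beyond the construction of each alternative. Dim probes have no settled order, and the deposited table holds no flag that marks them. Here these were G6pc and Gys2 in hypothalamus, with Ppp1r3b and Fbp1 close to the filter level on the congenic chow array there.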
